A study of Mus musculus with 6 samples.

Results

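The genes described here are 10 transporters that the endothelium of the blood-brain barrier uses, Slc2a1, Slc16a1, Slco1a4, Slco1c1, Slc7a5, Slc7a1, Slc38a5, Mfsd2a, Abcb1a and Abcg2. They were taken by their symbols from the gene lists of all libraries, and each was found, so that 10 of the 27514 gene identifiers listed for both preparations were followed. Single-cell RNA sequencing (scRNA-seq) data from 2 preparations were used, and a preparation from older cortex was not analysed here. In the cortical preparation, cerebral cortices came from 3 mice (C57Bl/6J, female) at an age of 3 weeks and were dissociated with dispase II and papain, freed of myelin on Percoll, pooled into 1 suspension and run as 3 technical libraries on the 10x Genomics droplet platform. The hippocampal preparation was made in the same way from the hippocampi of 3 C57Bl/6J females at an age of 5 weeks and was also run as 3 technical libraries. No treatment or genetic change is named for any of the mice. Region, age, preparation and gene annotation (31053 identifiers listed for cortex, 27998 for hippocampus) therefore change together and cannot be told apart. With 1 pooled sample for each preparation no test was run and no p-value is given. The spread between libraries is technical.

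Brain endothelial cells are sealed by tight junctions, so that nutrients reach the brain through carriers in their membranes. Solute carriers bring in glucose, lactate, amino acids, thyroid hormone and lipids, and pumps driven by ATP return drugs and other foreign compounds to the blood. Arteries, capillaries and veins of the brain are lined by endothelial cells that differ in the genes they express, and capillaries are regarded as the main site of nutrient exchange.

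After filtering, 13320 cortical and 14210 hippocampal cells remained, from libraries of 39662203 to 50024850 unique molecular identifiers (UMIs, the counted RNA molecules). Marker genes that did not include the transporters named 12 classes in each preparation, and a class is called by its markers, such as endothelial-like. The endothelial-like class held 2697 cortical cells (907, 905 and 885 in the libraries) with a median of 7062 UMIs, and 2136 hippocampal cells (713, 730 and 693) with a median of 6581 UMIs. Of all kept cells, 71 cortical and 749 hippocampal cells carried a barcode that another library of the same preparation also held, and among endothelial-like cells these were 10 and 21. A further 360 cortical cells with a median of 1149.5 UMIs were led by endothelial genes, Abcb1a among them, and stayed unnamed because too few markers passed. A shallow hippocampal cluster of 272 cells with a median of 1430 UMIs held 12 markers and is part of the endothelial-like class. Of its cells 26.5% were called doublets. Comparisons between the preparations thus include such a cluster on the hippocampal side alone. Levels are in CPM, the UMIs of a gene summed over the cells of a class and scaled by all UMIs of those cells to a fixed total. Ratios are log2 ratios of CPM with exact intervals at 95%, which cover counting error only. A ratio is called past 2-fold by its size alone.

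The 10 genes lie on 6 chromosomes of the mouse genome (GENCODE release M21 on GRCm38). Slc2a1 (ENSMUSG00000028645) spans chr4:119108711-119137983 on the plus strand, and Mfsd2a (ENSMUSG00000028655) lies on the minus strand of the same chromosome at chr4:122946850-122961188. Slc16a1 (ENSMUSG00000032902) spans chr3:104638668-104658462 on the plus strand. Slco1a4 (ENSMUSG00000030237), Slco1c1 (ENSMUSG00000030235) and Abcg2 (ENSMUSG00000029802) share chromosome 6, at chr6:141805440-141856199 on the minus strand, chr6:141524368-141570177 on the plus strand and chr6:58584523-58695676 on the plus strand. Slc7a1 (ENSMUSG00000041313) at chr5:148327410-148399904 on the minus strand and Abcb1a (ENSMUSG00000040584) at chr5:8660077-8748575 on the plus strand share chromosome 5. Slc7a5 (ENSMUSG00000040010) spans chr8:121881150-121907694 on the minus strand and Slc38a5 (ENSMUSG00000031170) spans chrX:8271133-8280179 on the plus strand. Slc7a5 overlaps the protein-coding Gm20388 on the opposite strand and Slc2a1 overlaps the antisense genes Gm12867 and Gm12868. Whether the authors' counting kept the strands apart is not given in the sources used here, so the values of these genes carry that doubt. Reads of Abcb1a could also be split with its near copy Abcb1b, and those of Slco1a4 with Slco1a5 and Slco1a6. In endothelial-like cells Abcb1b stood at 1.2 CPM in cortex and 2.1 CPM in hippocampus.

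RefSeq gives a start site, and with it the 250 bases upstream, for 9 of the 10 genes, with Slc7a5 missing (build GRCm38.p6). The windows of 3 genes that touch no annotated exon are shown, because Slc16a1 and Slc7a1 were both lower in arterial-like than in capillary-like cells, whereas Slco1c1 was lower in venous-like cells and was also found in astrocyte-like cells. Each runs 5′ to 3′ on the strand of its gene and ends at the base before the start site. Capitals mark the GC box GGGCGG or its reverse complement CCGCCC.
Slc16a1, chr3:104638414-104638663, plus strand: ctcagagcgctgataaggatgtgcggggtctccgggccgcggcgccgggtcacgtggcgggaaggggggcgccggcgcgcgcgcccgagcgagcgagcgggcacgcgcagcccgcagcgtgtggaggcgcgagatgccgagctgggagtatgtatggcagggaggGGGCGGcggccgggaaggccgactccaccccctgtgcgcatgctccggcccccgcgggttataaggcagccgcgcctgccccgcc
Slc7a1, chr5:148399905-148400154, minus strand: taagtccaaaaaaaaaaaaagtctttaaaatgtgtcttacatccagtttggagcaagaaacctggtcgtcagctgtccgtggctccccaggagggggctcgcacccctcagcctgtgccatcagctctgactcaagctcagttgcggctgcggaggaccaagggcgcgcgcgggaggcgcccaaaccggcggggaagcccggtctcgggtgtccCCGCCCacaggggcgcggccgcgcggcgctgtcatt
Slco1c1, chr6:141524104-141524353, plus strand: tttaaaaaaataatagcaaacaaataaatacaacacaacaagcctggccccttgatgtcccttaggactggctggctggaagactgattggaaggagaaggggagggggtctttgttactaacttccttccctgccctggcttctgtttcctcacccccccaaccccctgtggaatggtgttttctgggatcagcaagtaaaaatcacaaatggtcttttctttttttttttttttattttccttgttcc
The Slc16a1 window was 76.4% GC, the Slc7a1 window 62.4% and the Slco1c1 window 42.8%, where the median over 32851 RefSeq windows of this length was 52.4%. GGGCGG, searched on both strands, was found in 4 of the 9 windows, those of Slc2a1, Slc16a1, Slc7a1 and Slc38a5, and in 32.7% of all windows. CTTTGA, the core of TCF/LEF sites, was found in the windows of Mfsd2a and Abcb1a and in 13.8% of all windows. The forkhead motif TGTTTAC was found only in the Abcb1a window and in 3.17% of all windows. The RefSeq start of Abcb1a lies far upstream of the GENCODE gene, so that window is not shown. The ETS motifs CAGGAA and CCGGAA and the TATA box TATAAA were in 0 of the 9 windows, against 25.7%, 12% and 12.4% of all windows. These counts take the first start of each gene. RefSeq lists further starts for Slc7a1 and Abcg2, and there the TATA box, CAGGAA and CTTTGA were found at the second start of Slc7a1, and CAGGAA as well as GGGCGG at the other two starts of Abcg2. A match is a run of letters and was not tested as a binding site.

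In both preparations each of the 10 transporters had its highest level in endothelial-like cells. How many of all genes are highest there was not counted. The members were chosen as transporters of this endothelium, with earlier results of these data known. At least 2-fold above the mean of the other 11 classes were 10 of 10 in cortex, where 11.7% of 15080 genes passed, and 10 of 10 in hippocampus, where 10.6% of 15536 genes passed. The median log2 ratio of the members was 3.23 in cortex and 4.98 in hippocampus, against -0.07 and -0.25 over all genes. The other classes were not the same in both preparations. Erythroid-like, B cell-like and monocyte- or neutrophil-like cells were among them in cortex alone. Oligodendrocyte precursor-like, ependymal-like and choroid plexus epithelial-like cells were among them in hippocampus alone. Ratios over this mean, here and below, thus cannot be compared directly between the preparations. For every transporter, all 3 endothelial libraries lay above all 3 libraries of the class next in order. The libraries are technical, and the share of all genes that separate in this way was not counted. The same holds wherever libraries are said below not to overlap.

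**Figure D1:**
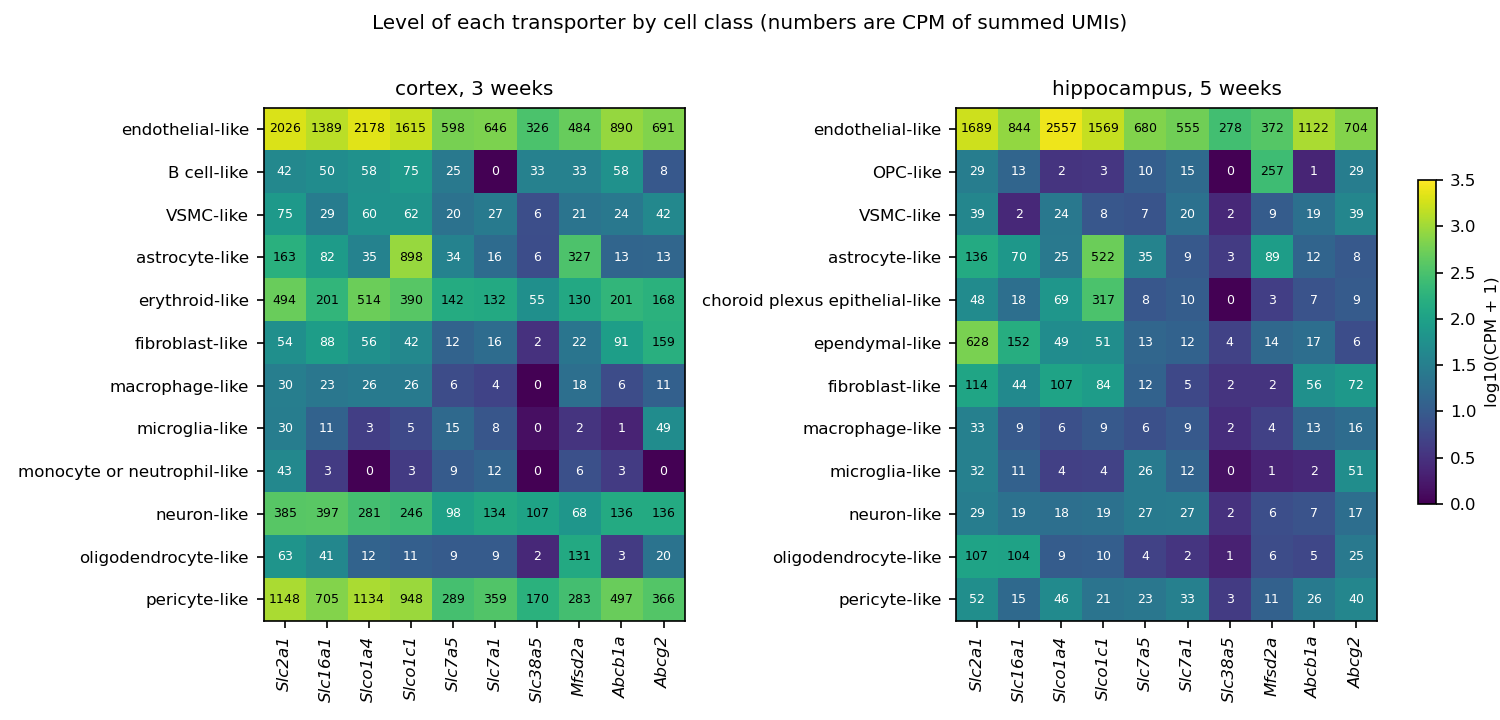
Level of each transporter (columns) in each named class (rows) of the cortical and the hippocampal preparation, printed as CPM of summed UMIs and coloured by log10(CPM + 1). The endothelial-like row held the highest value of every column. For Slco1c1 the astrocyte-like row stood at 898 CPM in cortex and 522 CPM in hippocampus. The cortical pericyte-like row stood at 948 CPM for Slco1c1, and its libraries overlapped with the astrocyte-like ones.

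Slc2a1 encodes the glucose transporter GLUT1. It stood at 1947, 2007 and 2131 CPM in the cortical endothelial libraries and at 1716, 1674 and 1676 CPM in the hippocampal ones. The hippocampal libraries were thus all lower than the cortical ones, and the level was 8.82 times the mean of the other classes in cortex and 14.9 times in hippocampus. Slc16a1 encodes MCT1, which carries lactate, pyruvate and ketone bodies. Its cortical values were 1375, 1335 and 1459 CPM and its hippocampal values 851, 888 and 791 CPM, the widest gap between preparations among the 10. Over the mean of the other classes Slc16a1 was 9.37 times higher in cortex and 20.4 times higher in hippocampus. The cortical ratios depended on how the cells were clustered. Without integration the log2 ratio of Slc2a1 rose from 3.14 to 4.01 in cortex, where hippocampus gave 3.90 and then 3.99. Slc16a1 moved from 3.23 to 4.21 in cortex, Slco1a4 from 3.46 to 4.57 and Abcb1a from 3.25 to 4.55. For Slco1a4 and Abcb1a the lowest hippocampal values under any alternative were 5.42 and 5.35, above these cortical values. Leaving out integration also changed which clusters were named, and the cause of these moves was not tested.

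Slco1a4 and Slco1c1 encode organic anion transporters, of which the second takes up thyroxine. Slco1a4 stood at 2136, 2177 and 2224 CPM in cortex and at 2597, 2605 and 2462 CPM in hippocampus, so that the hippocampal libraries were all higher. Slco1c1 stood at 1635, 1617 and 1590 CPM in cortex and at 1566, 1535 and 1608 CPM in hippocampus. The Slco1c1 libraries of the 2 preparations overlapped.

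Among the amino acid carriers, Slc7a5 encodes LAT1, the light chain of an exchanger of large neutral amino acids. Slc7a5 stood at 579, 495 and 726 CPM in cortex and at 692, 688 and 659 CPM in hippocampus, and the cortical libraries spread over the whole hippocampal range. Slc7a1, the carrier of arginine and lysine, stood at 733, 631 and 569 CPM in cortex and at 549, 568 and 546 CPM in hippocampus. The lowest cortical library of Slc7a1 was just above the highest hippocampal one. Slc38a5, a sodium-coupled carrier of glutamine and other neutral amino acids, stood at 307, 335 and 335 CPM in cortex and at 264, 294 and 277 CPM in hippocampus, without overlap.

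Mfsd2a, which carries lysophosphatidylcholine with docosahexaenoic acid and limits transcytosis, stood at 470, 488 and 493 CPM in cortex and at 369, 384 and 362 CPM in hippocampus. Abcb1a, 1 of the mouse genes for P-glycoprotein, stood at 878, 870 and 925 CPM in cortex and at 1186, 1090 and 1091 CPM in hippocampus. Mfsd2a was thus lower and Abcb1a higher in every hippocampal library. Abcg2, the breast cancer resistance protein pump, stood at 683, 681 and 709 CPM in cortex and at 705, 686 and 721 CPM in hippocampus, and its libraries overlapped. The ratio over the mean of the other classes was smallest for Mfsd2a, at 5.10-fold in cortex and 10.2-fold in hippocampus, and in hippocampus it was largest for Slc38a5, at 158-fold. That value is a log2 ratio of 7.31, with 7.54, 6.78 and 8.04 in the single libraries, and it ran from 5.98 with cells assigned singly by their marker UMIs to 8.11 without called doublets. It was taken over a very low mean of 1.76 CPM in the other hippocampal classes. In cortex the ratio of Slc38a5 was 9.41-fold.

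The level outside the endothelium was read against 10 reference endothelial genes (Cldn5, Cdh5, Tie1, Ptprb, Egfl7, Ly6c1, Ramp2, Esam, Flt1 and Pecam1), as a rough guide to the endothelial RNA of a class. All 10 are also among the markers that named the endothelial-like class, whereas no member is in a marker list. The naming itself thus favours low reference levels in the other classes, and a member above them is a description only. In some classes the reference genes were far apart, so a member below the highest of them can still lie above most of them. In cortical pericyte-like cells (372 cells) these genes stood at 48.8% to 73.2% of their endothelial level and the members at 48.3% to 58.7%, so that none of the members exceeded the reference. At a clustering resolution of 1.0 the cortical pericyte-like cluster held 168 cells, and the members stood at 1.33% to 7.34% of their endothelial levels. In hippocampal pericyte-like cells (451 cells) the members stood at 1.10% to 5.88%. The reference genes ran there from 0.88% to 44.6%, with a median of 2.15%. The cortical erythroid-like class held the reference genes at 18.5% to 24.8% and the neuron-like class at 9.72% to 27.4%, and these ranges were exceeded by Mfsd2a in the first and by Slc16a1 and Slc38a5 in the second. The larger cortical levels of the members in these classes, and the smaller cortical ratios above, go together with this endothelial RNA, whose part in them was not tested.

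In astrocyte-like cells 5 of the 10 members in cortex and 4 in hippocampus stood above every reference gene. Astrocyte-like cells were not alone in this, with 5 in oligodendrocyte-like cells of each preparation and 5 in choroid plexus epithelial-like cells. Ependymal-like cells had 4, and the share of all genes above the reference was not counted. The highest reference gene differed by class, so these counts are not alike. It stood at 1.45% in cortical and 0.59% in hippocampal oligodendrocyte-like cells, 1.63% in choroid plexus epithelial-like and 2.71% in ependymal-like cells. Some members counted there were low, such as Slco1c1 at 10.2 CPM (0.65%) in hippocampal oligodendrocyte-like cells. Slco1c1 stood at 842, 917 and 940 CPM in the 3 cortical astrocyte-like libraries (2736 cells), which is 55.6% of the endothelial level where the reference genes reached at most 5.39%. In hippocampal astrocyte-like cells (1976 cells) Slco1c1 stood at 525, 522 and 520 CPM, 33.3% of the endothelial level against at most 6.09%. Mfsd2a followed the same order, and the libraries of the 2 preparations did not overlap for either gene. Mfsd2a stood at 306, 325 and 354 CPM in cortical astrocyte-like cells, 67.7% of the endothelial level, and at 92.9, 92.1 and 81.4 CPM in hippocampal ones, 23.9%. The log2 ratio of hippocampal over cortical astrocyte-like cells was -1.88 (-1.97 to -1.79) for Mfsd2a and -0.78 (-0.82 to -0.74) for Slco1c1. The median of all genes was not taken for this comparison. The make-up of the class also differed. It held a shallow cluster of 876 cells led by Fabp7 (median of 1674.5 UMIs) in cortex. In hippocampus it held a shallow cluster of 496 cells led by Aldoc (median of 1560.5 UMIs).

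With each cell thinned to 1000 UMIs, 50.4% of cortical and 35.2% of hippocampal astrocyte-like cells held a Slco1c1 UMI, against 0.41% and 0.33% of microglia-like cells. The shares before thinning were 81.5% and 75.0% at median depths of 6491 and 6710.5 UMIs, and 2.24% and 2.37% in microglia-like cells at 5472 and 6647.5 UMIs. Thinning left out 160 cortical and 129 hippocampal astrocyte-like cells and 76 and 4 microglia-like cells as too shallow. Slc2a1 and Slc16a1 were also above the reference in astrocyte-like cells of both preparations, by less, and Slc7a5 in cortex at 5.71%. Slc2a1 stood at 8.06% of its endothelial level in cortex and 8.04% in hippocampus, and Slc16a1 at 5.88% and 8.35%.

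In the oligodendrocyte lineage, Mfsd2a stood at 276, 241 and 259 CPM in hippocampal OPC-like cells (oligodendrocyte precursors, 260 cells), which is 69.2% of the endothelial level where the reference genes reached at most 3.46%. In hippocampal oligodendrocyte-like cells (1075 cells) Mfsd2a was at 5.70, 4.57 and 6.45 CPM, far below each OPC-like library. Slc16a1 showed the opposite order, at 103, 103 and 105 CPM in oligodendrocyte-like cells and at 9.61, 12.5 and 15.8 CPM in OPC-like cells. No OPC-like class was named in cortex, and in the 66 cortical oligodendrocyte-like cells Mfsd2a stood at 145, 104 and 148 CPM. These cells held at least as many OPC markers as oligodendrocyte markers (11) and were named by their leading genes. Their Mfsd2a level thus cannot be read as that of oligodendrocytes without OPC-like cells.

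Ependymal-like and choroid plexus epithelial-like cells were named in the hippocampal preparation alone. Slc2a1 stood at 587, 723 and 578 CPM in the 211 ependymal-like cells, 37.2% of the endothelial level where the reference genes reached at most 2.71%. Slc16a1 stood there at 141, 173 and 143 CPM, 18% of its endothelial level. Slco1c1 stood at 317, 258 and 368 CPM in the 826 choroid plexus epithelial-like cells, 20.2% of its endothelial level against a reference of at most 1.63%, in cells with a median of 875 UMIs. Slc38a5 had 0 UMIs in these cells and in OPC-like cells. Abcg2 was the single member above every reference gene in microglia-like cells, at 49.3 CPM in cortex and 50.7 CPM in hippocampus, 7.13% and 7.20% of the endothelial level. The reference genes reached 5.01% and 5.43% there, with a median of 0.20% in both. Other members could lie above this median, as did Slc7a5 at 2.50% and 3.87%. In hippocampal neuron-like cells (516 cells) Slc7a1 and Slc7a5 stood at 27.1 and 26.8 CPM, 4.89% and 3.94% of their endothelial levels against at most 2.29%.

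**Figure D2:**
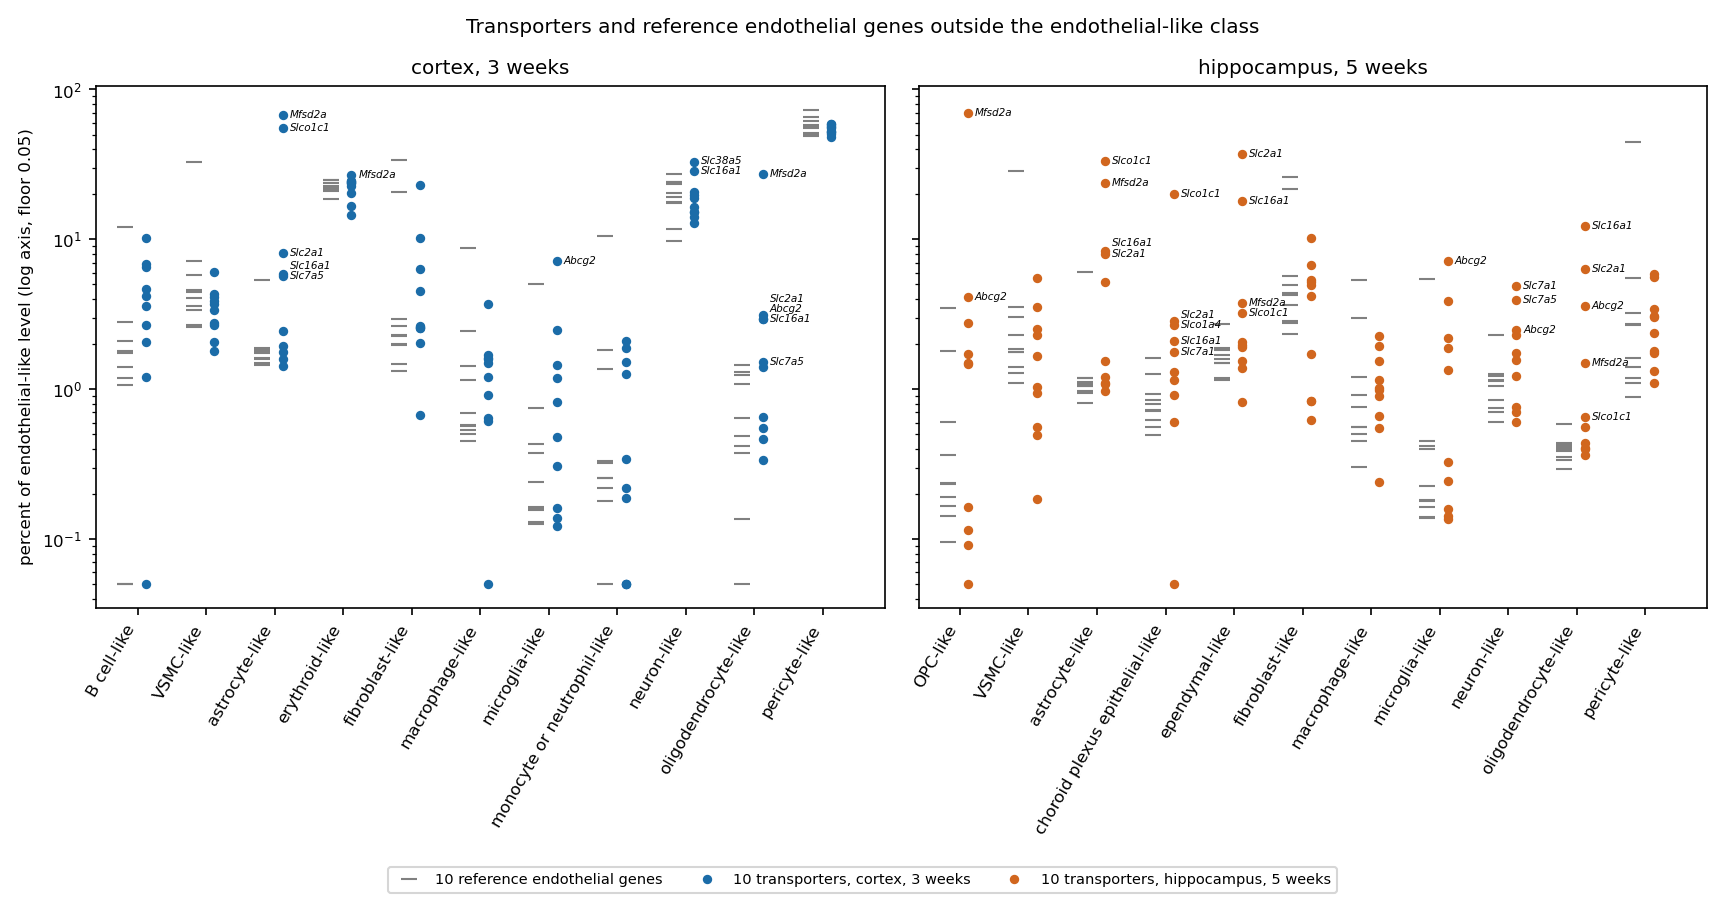
Level in each class other than the endothelial-like as a percent of the endothelial-like level of the same preparation (vertical log axis with a floor of 0.05) for the reference endothelial genes and for the transporters within and above the reference range. Slco1c1 and Mfsd2a lay above the reference in astrocyte-like cells, Mfsd2a in OPC-like cells at 69.2% and Slc2a1 in ependymal-like cells at 37.2%.

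The endothelial-like cells of all libraries were then clustered together, with the members left out of the genes used, and subclusters were named from segment markers. Arterial-like cells (248 cortical and 271 hippocampal) held 15 and 17 of 20 arterial markers in their 2 subclusters, and venous-like cells (70 and 45) held 13 of 20 venous markers. Capillary-like cells numbered 1958 and 1594, and angiogenic-like cells, led by Apln, numbered 127 and 22. The venous-like cells came as 26, 25 and 19 per cortical library and 15, 15 and 15 per hippocampal library, so that their values are the least precise. The cortical venous-like cells were deeper, with a median of 13120.5 UMIs against 7612 in arterial-like and 6358 in capillary-like cells. A further 294 cortical and 192 hippocampal cells that also held markers of other classes were left out of the segments.

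**Figure D3:**
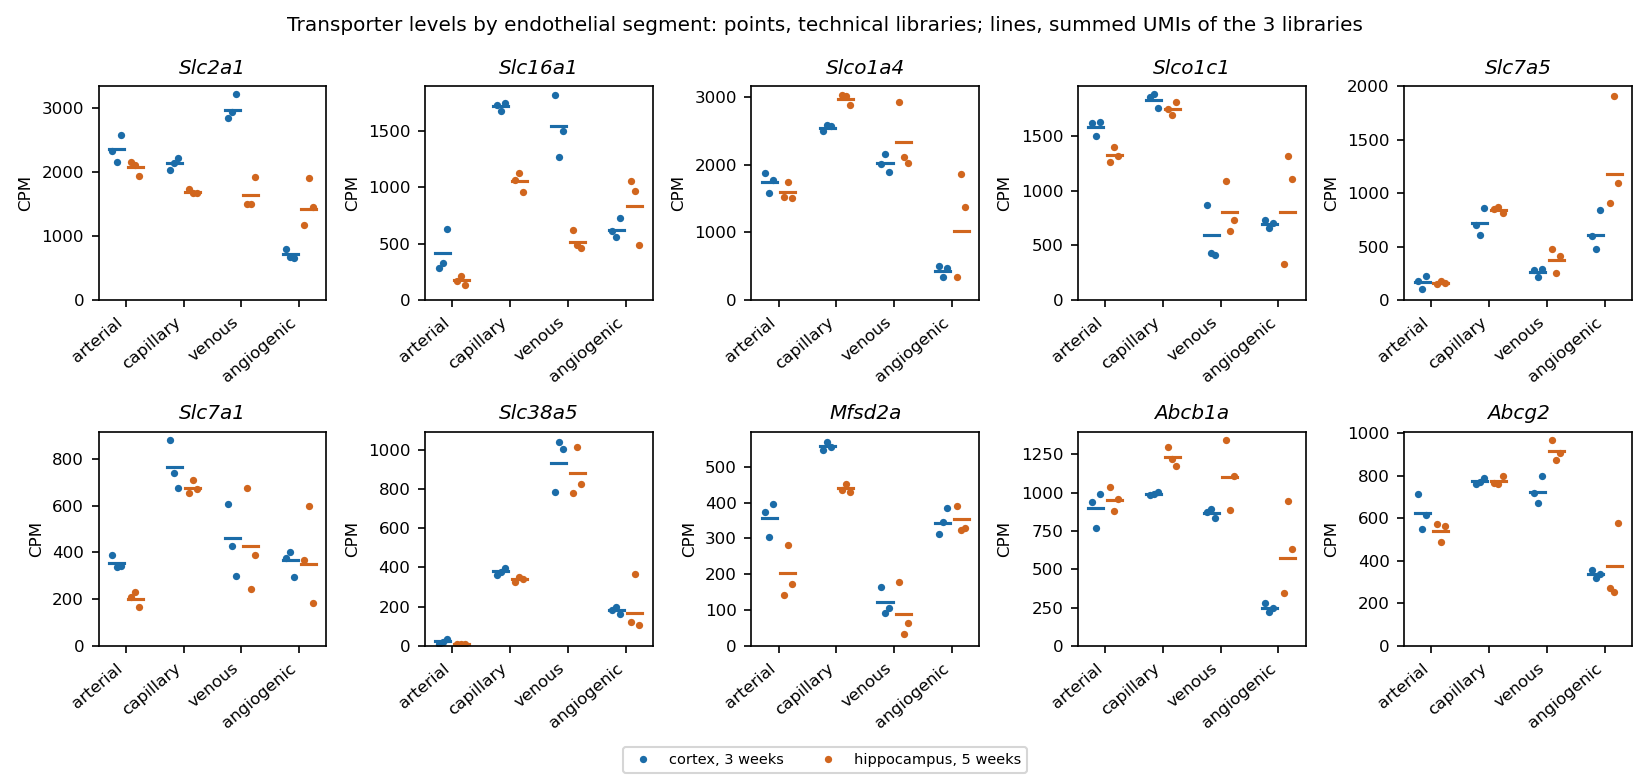
CPM of each transporter in arterial-like, capillary-like, venous-like and angiogenic-like cells. Points are the 3 technical libraries of each preparation and lines the summed UMIs. Slc38a5 was near 0 in arterial-like cells and highest in venous-like cells at 933 CPM in cortex and 879 CPM in hippocampus, and Mfsd2a was lowest in venous-like cells.

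Arterial-like cells held less than capillary-like cells of most transporters. Lower by at least 2-fold were 4 of 10 members in cortex (5.46% of 11327 genes) and 5 of 10 in hippocampus (5.17% of 11205 genes), and higher by 2-fold were 0 of 10 in both (6.20% and 5.17% of genes). Slc16a1, Slc7a5, Slc7a1 and Slc38a5 were lower in both preparations and Mfsd2a in hippocampus. The median of the members was -0.59 in cortex and -1.01 in hippocampus, against 0.00 and -0.03 over all genes.

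Slc38a5 differed most along the vessels. It stood at 12, 19.1 and 36.8 CPM in cortical arterial-like cells, at 363, 379 and 397 CPM in capillary-like cells and at 787, 1039 and 1005 CPM in venous-like cells. In hippocampus it stood at 9.91, 9.91 and 10.2 CPM, at 323, 352 and 341 CPM and at 778, 1013 and 827 CPM. The 3 segments did not overlap in either preparation. Arterial-like over capillary-like cells gave a log2 ratio of -4.07 (-4.49 to -3.67) in cortex and -5.08 (-5.71 to -4.52) in hippocampus. The size of this ratio depended on the clustering. It was -2.42 and -2.77 with an endothelial resolution of 1.0, where only 193 and 164 cells with a median of 3122 UMIs were capillary-like. It was -2.62 and -2.57 with cells assigned singly and -2.94 and -2.69 without integration, all past 2-fold. Venous-like over capillary-like cells gave 1.30 (1.20 to 1.40) and 1.38 (1.23 to 1.52), a level 2.46 and 2.59 times higher.

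At 1000 UMIs per cell, a Slc38a5 UMI was found in 3.63% of cortical arterial-like, 26.0% of capillary-like and 67.1% of venous-like cells, and in 1.48%, 25.3% and 55.6% of the hippocampal ones. In microglia-like cells it was found in 0.03% and 0.09%. Before thinning the shares were 11.7%, 69.6% and 100% in cortex and 7.38%, 61.0% and 100% in hippocampus. Thinning left out 1 cortical and 87 hippocampal capillary-like cells and 1 hippocampal arterial-like cell.

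Slc16a1 was also low in arteries. It stood at 283, 325 and 629 CPM in cortical arterial-like cells and at 1728, 1670 and 1744 CPM in capillary-like cells, a log2 ratio of -2.06 (-2.15 to -1.96). In hippocampus it stood at 166, 214 and 136 CPM against 1066, 1128 and 955 CPM, a ratio of -2.60 (-2.74 to -2.46). With cells assigned singly by their marker UMIs these were -1.45 and -1.72. In veins the 2 preparations gave different values. Cortical venous-like cells held 1812, 1268 and 1497 CPM, which overlapped with the capillary-like libraries, and hippocampal venous-like cells held 619, 484 and 457 CPM, which did not, with ratios of -0.16 (-0.23 to -0.08) and -1.02 (-1.21 to -0.84).

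The amino acid carriers Slc7a5 and Slc7a1 were highest in capillary-like cells of the 3 segments. Slc7a5 stood at 179, 106 and 226 CPM in cortical arterial-like cells, at 703, 607 and 859 CPM in capillary-like cells and at 283, 212 and 287 CPM in venous-like cells. In hippocampus Slc7a5 stood at 146, 178 and 164 CPM, at 849, 871 and 813 CPM and at 479, 256 and 407 CPM. The capillary-like libraries were above all others in both preparations. Arterial-like over capillary-like cells gave -2.1 (-2.24 to -1.95) and -2.37 (-2.52 to -2.23), and venous-like over capillary-like cells gave -1.48 (-1.67 to -1.30) and -1.17 (-1.39 to -0.96). With cells assigned singly the arterial-like ratios were -1.36 and -1.53, and without integration -2.88 and -1.77.

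Slc7a1 stood at 387, 339 and 341 CPM in cortical arterial-like cells and at 879, 740 and 676 CPM in capillary-like cells, a log2 ratio of -1.10 (-1.21 to -1.0). In hippocampus it stood at 208, 230 and 165 CPM against 652, 708 and 670 CPM, a ratio of -1.74 (-1.87 to -1.61). Its venous-like libraries were wide apart, at 606, 426 and 299 CPM in cortex and at 676, 245 and 389 CPM in hippocampus, and in hippocampus they overlapped with the capillary-like ones. Slc3a2, the heavy chain that pairs with Slc7a5, gave arterial-like over capillary-like ratios of -1.39 in cortex and -1.50 in hippocampus.

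Slc2a1, Slco1a4, Abcb1a and Abcg2 stayed within 2-fold between arterial-like, capillary-like and venous-like cells as clustered here. Slc2a1 stood at 2321, 2154 and 2582 CPM in cortical arterial-like cells and at 2030, 2140 and 2222 CPM in capillary-like cells, which overlapped. In hippocampus it stood at 2152, 2109 and 1941 CPM against 1726, 1665 and 1665 CPM without overlap, a ratio of 0.30 (0.25 to 0.34). At an endothelial resolution of 1.0 the sign turned, to -0.46 in cortex and -0.08 in hippocampus, against the 193 and 164 capillary-like cells of that setting. Without integration it turned to -0.40 in cortex. Slco1a4 was lower in arterial-like than in capillary-like cells, at ratios of -0.55 (-0.60 to -0.50) in cortex and -0.90 (-0.95 to -0.85) in hippocampus. Slco1a4 passed 2-fold at an endothelial resolution of 1.0, at -1.03 and -1.16, and in cortex without integration, at -1.46. Under the same changes its cortical venous-like over capillary-like ratio went from -0.33 to -1.06 and -1.05. Abcb1a gave -0.15 (-0.21 to -0.08) and -0.37 (-0.43 to -0.30), and its cortical libraries overlapped. Abcg2 gave -0.31 (-0.39 to -0.23) and -0.52 (-0.60 to -0.43), without overlap in either preparation.

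Between venous-like and capillary-like cells, 4 of 10 members passed 2-fold in either direction in cortex (11.7% of 11144 genes) and 5 of 10 in hippocampus (14.9% of 10927 genes). Slc38a5 was higher in venous-like cells in both preparations. Slco1c1, Slc7a5 and Mfsd2a were lower in both, and Slc16a1 was lower in hippocampus. The call of Slc16a1 held under 9 of 16 alternatives and ended at -0.95 with another total, -0.93 as a mean over cells, -0.91 and -0.68 at endothelial resolutions of 0.3 and 1.0, -0.74 without integration and -0.29 with cells assigned singly. Mfsd2a stood at 165, 91.6 and 106 CPM in cortical venous-like cells against 548, 571 and 555 CPM in capillary-like cells, a log2 ratio of -2.17 (-2.44 to -1.92). In hippocampus Mfsd2a stood at 179, 33.4 and 62.7 CPM against 436, 453 and 430 CPM, a ratio of -2.31 (-2.77 to -1.88). The venous-like values rested on 44 Mfsd2a UMIs in hippocampus, and none of their libraries reached a capillary-like one.

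Arterial-like cells lay between the other 2 segments for Mfsd2a, at 375, 305 and 396 CPM in cortex and at 141, 283 and 174 CPM in hippocampus, where they overlapped with the venous-like libraries. At 1000 UMIs, a Mfsd2a UMI was found in 27.0% of arterial-like, 42% of capillary-like and 8.57% of venous-like cells in cortex and in 13.7%, 33.9% and 6.67% in hippocampus. Microglia-like cells gave 0.23% and 0.10%. Before thinning the shares were 72.2%, 91.7% and 62.9% in cortex and 49.1%, 75.2% and 42.2% in hippocampus.

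Slco1c1 had the same low venous value but a high arterial one. It stood at 868, 426 and 408 CPM in cortical venous-like cells against 1858, 1878 and 1758 CPM in capillary-like cells, a log2 ratio of -1.63 (-1.75 to -1.51). In hippocampus it stood at 1085, 629 and 733 CPM against 1750, 1694 and 1812 CPM, a ratio of -1.12 (-1.26 to -0.97). The first library was the highest of the venous-like ones in both preparations, and none overlapped with a capillary-like library. Arterial-like cells held 1616, 1499 and 1625 CPM in cortex and 1260, 1401 and 1313 CPM in hippocampus.

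Between arterial-like and venous-like cells, 2 of 10 members were at least 2-fold higher in the arterial-like cells of cortex (Slco1c1 and Mfsd2a, with 8.65% of 9280 genes) and 1 of 10 in hippocampus (Mfsd2a, with 9.88% of 9292 genes). Lower by 2-fold were 2 of 10 in cortex (Slc16a1 and Slc38a5, with 5.00% of genes) and 4 of 10 in hippocampus (Slc16a1, Slc7a5, Slc7a1 and Slc38a5, with 5.33% of genes). Slc2a1 gave a log2 ratio of -0.34 (-0.40 to -0.27) in cortex and 0.34 (0.23 to 0.45) in hippocampus. Cortical venous-like cells held 2845, 2928 and 3213 CPM of Slc2a1, above every arterial-like library, whereas hippocampal venous-like cells held 1499, 1497 and 1917 CPM, below every arterial-like library. In cortex this sign turned, to 0.26, when cells were assigned singly by their marker UMIs. Several of the calls ended when 1 library was left out, in hippocampus Slc7a5 at -0.93 and Slc7a1 at -0.64 without replicate 1 and Mfsd2a at 0.39 without replicate 2. Without replicate 1 Mfsd2a stood at 2.30 and Slco1c1 passed, at 1.01. When cells were assigned singly, 2 of 10 members passed 2-fold in each preparation. Without integration the cortical values were 0.33 for Slco1c1 and 0.22 for Mfsd2a and the hippocampal ones -0.08 for Slc7a1 and 0.21 for Slc7a5, a reversed sign. The venous-like subcluster of that setting held 411 cortical and 26 hippocampal cells.

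**Figure D4:**
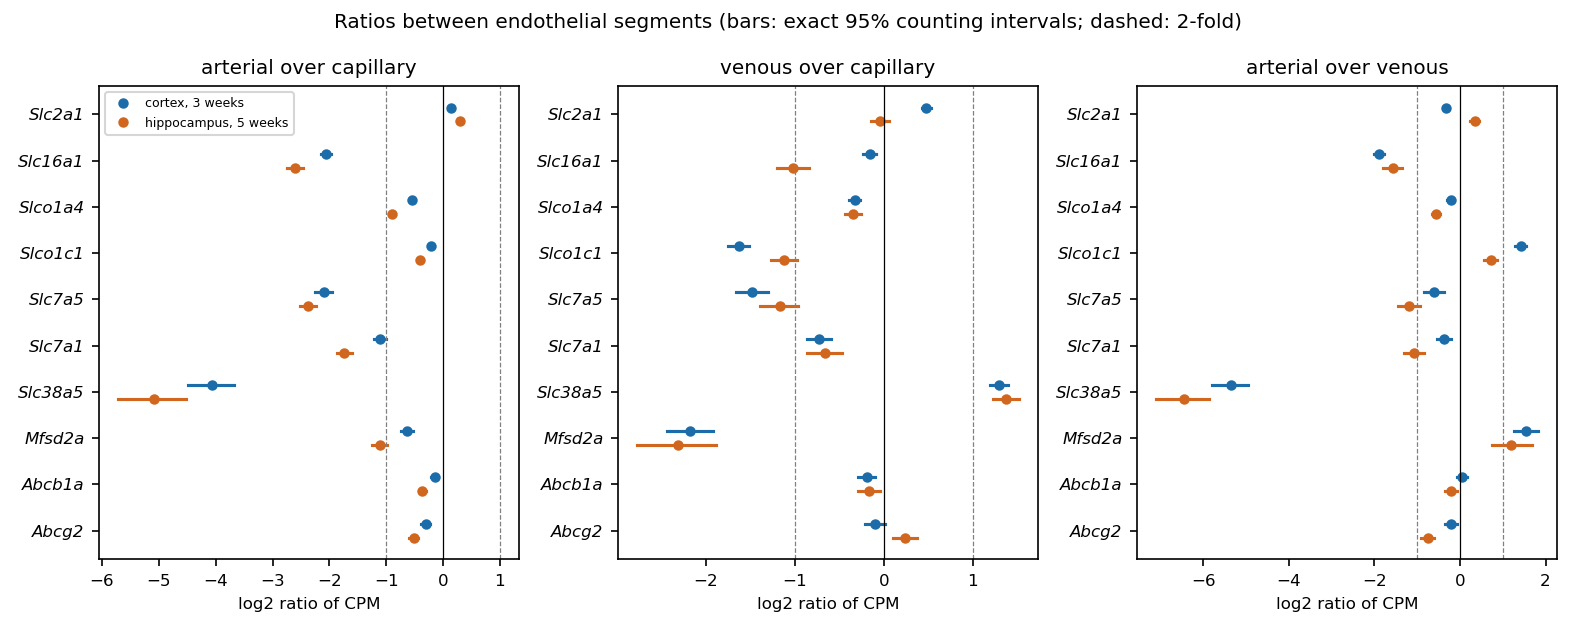
Log2 ratios of CPM between segments for each transporter in cortex and hippocampus, with exact 95% counting intervals as bars and 2-fold as dashed lines. Slc38a5 lay farthest from 0 in arterial over capillary cells at -4.07 and -5.08, and Mfsd2a lay lowest in venous over capillary cells at -2.17 and -2.31.

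The segment calls depended on how cells were assigned. Assigned singly by their marker UMIs, the 4833 endothelial-like cells gave 1221 arterial-like, 2356 capillary-like and 1256 venous-like cells. The clusters held 519 arterial-like and 115 venous-like cells over both preparations. Mixed and angiogenic-like cells were among those assigned singly. All clustered venous-like cells kept their name, as did 60.8% of the capillary-like ones. When cells were assigned singly by their marker UMIs, without clusters, 0 members passed 2-fold between venous-like and capillary-like cells, where Slc38a5 gave 0.77 in cortex and 0.62 in hippocampus and Mfsd2a -0.79 and -0.91, and the arterial-like calls of Slc7a1 in cortex (-0.88) and Mfsd2a in hippocampus (-0.52) ended. The hippocampal arterial-like call of Mfsd2a also ended without replicate 1, at -0.93, and without integration, at -0.27. Without replicate 2 the hippocampal venous-like calls of 3 members ended, with Slc16a1 at -0.91, Slco1c1 at -0.97 and Slc7a5 at -0.91. Without replicate 1 the hippocampal venous-like ratio of Mfsd2a was -3.23 and that of Slc7a1 passed, at -1.14.

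The capillary-like cells fell into 5 subclusters, among which Slc38a5 and Mfsd2a differed again. A subcluster led by Flrt2 and Nr2f2 (599 cortical and 421 hippocampal cells, with 2 venous markers) was compared with the largest one, led by Cxcl12 (853 and 664 cells). Slc38a5 stood at 558, 579 and 605 CPM in the first and at 184, 190 and 225 CPM in the second in cortex, and at 527, 544 and 592 CPM against 166, 159 and 170 CPM in hippocampus. Slc38a5 was the 1 member past 2-fold, with log2 ratios of 1.53 (1.43 to 1.63) and 1.74 (1.62 to 1.86), where 2.97% of cortical and 2.16% of hippocampal genes were that much higher. Mfsd2a went the other way, at -0.73 (-0.80 to -0.66) and -0.70 (-0.80 to -0.60), and Slc16a1 was higher at 0.46 (0.41 to 0.50) and 0.31 (0.24 to 0.37). The libraries of these 2 subclusters did not overlap for Slc38a5, Mfsd2a or Slc16a1.

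In angiogenic-like cells, 8 of 10 members were at least 2-fold lower than in capillary-like cells in cortex (10.3% of genes) and 5 of 10 in hippocampus (9.66% of genes). Slco1a4 was lowest, at 497, 346 and 465 CPM in cortex, a log2 ratio of -2.56 (-2.66 to -2.47), and at 336, 1866 and 1366 CPM in hippocampus, a ratio of -1.54 (-1.74 to -1.35). The hippocampal values came from 8, 5 and 9 cells per library and spread widely. Slc7a5 and Mfsd2a did not pass in either preparation. Slc7a5 stood at 596, 479 and 843 CPM in cortex, which overlapped with the capillary-like libraries, and at 911, 1912 and 1090 CPM in hippocampus, above each of them, with ratios of -0.24 (-0.33 to -0.16) and 0.48 (0.29 to 0.66). These cells had a median of 15664 UMIs in cortex and 9015.5 in hippocampus.

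Between the preparations, 0 of 10 members differed by 2-fold in endothelial-like cells as a whole, where 6.70% of 12889 genes were higher and 3.07% lower in hippocampus. The median of all genes was 0.16 on the log2 scale and that of the members -0.13. Slc16a1 had the largest difference, at -0.72 (-0.75 to -0.69), which is -0.88 relative to the median of all genes. Mfsd2a gave -0.38 (-0.42 to -0.33), Slc2a1 -0.26 (-0.28 to -0.24), Slc38a5 -0.23 (-0.28 to -0.17) and Slc7a1 -0.22 (-0.26 to -0.18), and Abcb1a gave 0.33 (0.31 to 0.36) and Slco1a4 0.23 (0.21 to 0.25). Relative to the median of all genes Abcb1a was 0.18 higher and Slco1a4 0.07 higher. Slc7a5, Slco1c1 and Abcg2 overlapped between the libraries of the 2 preparations.

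Within segments, the difference in Slc16a1 was -1.25 (-1.41 to -1.08) in arterial-like, -0.70 (-0.74 to -0.67) in capillary-like and -1.57 (-1.77 to -1.38) in venous-like cells. In arterial-like cells 2 of 10 members were at least 2-fold lower in hippocampus (Slc16a1 and Slc38a5, with 2.32% of genes), in capillary-like cells 0 of 10 (2.55%) and in venous-like cells 1 of 10 (Slc16a1, with 3.73%). Both arterial-like calls rested on cortical replicate 3, the library highest in both genes, and without it 0 of 10 passed, with Slc16a1 at -0.81 and Slc38a5 at -0.65. With cells assigned singly 0 members passed in any segment, and Slc16a1 gave -0.80 in arterial-like and -0.58 in venous-like cells. At an endothelial resolution of 1.0 these were -0.97 and -0.96, and without integration -0.66 and -0.89. Arterial-like Slc38a5 gave -1.18 (-1.93 to -0.47) from low levels on both sides, and its sign turned with cells assigned singly (0.12) and without integration (0.75). Mfsd2a and Slc7a1 were also lower in hippocampal arterial-like cells, at -0.82 (-0.98 to -0.66) and -0.81 (-0.97 to -0.65), without overlap of the libraries, and without hippocampal replicate 2 Mfsd2a passed at -1.19. Without integration these were -0.10 and -0.20. Slc2a1 was lower in hippocampal venous-like cells at -0.86 (-0.98 to -0.75), and Mfsd2a passed there without hippocampal replicate 1, at -1.39.

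**Figure D5:**
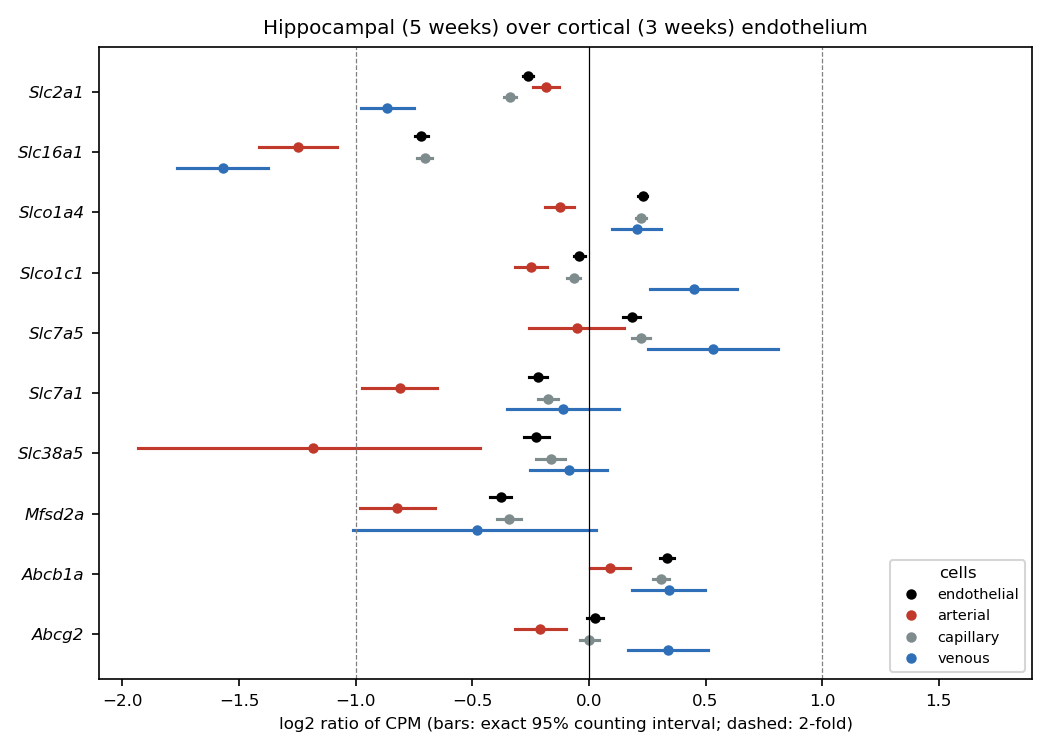
Log2 ratio of CPM of hippocampal (5 weeks) over cortical (3 weeks) cells for each transporter, in all endothelial-like cells and in each segment, with exact 95% counting intervals as bars and 2-fold as dashed lines. Slc16a1 lay below 0 in every segment, from -0.70 in capillary-like to -1.57 in venous-like cells. Region, age, preparation and gene annotation change together.

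Of 38 related transporters, listed with earlier results of these data known, 37 passed the filter on low counts. In endothelial-like cells 24 were at least 2-fold above the mean of the other classes in cortex and 23 in hippocampus, and 7 and 9 were that much lower. Of all genes 11.7% and 10.6% were that much higher and 29.0% and 33.6% that much lower. The highest level of any class was in endothelial-like cells for 20 of the 37 in cortex and 17 in hippocampus. The share of all genes highest there was not counted. Bsg, the chaperone of Slc16a1, stood at 18361, 19134 and 21173 CPM in cortical endothelial-like cells and at 18266, 18689 and 18069 CPM in hippocampal ones. Slc3a2 stood at 798, 826 and 868 CPM in cortex and at 701, 736 and 718 CPM in hippocampus. Arterial-like over capillary-like cells showed 12 lower and 2 higher of 33 in cortex (median -0.50) and 14 lower and 2 higher of 33 in hippocampus (median -0.86), where 5.46% and 5.17% of all genes were lower and 6.20% and 5.17% higher.

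Among these, Slc22a8, an organic anion transporter, gave -1.86 and -2.29, Slc39a8, a zinc and manganese carrier, -1.88 and -2.1, and Slc40a1, the iron exporter ferroportin, -1.47 and -1.66. In venous-like over capillary-like cells 8 of 33 passed 2-fold in either direction in cortex, where 11.7% of all genes did, and 6 of 33 (18.2%) in hippocampus, near the 14.9% of all genes. Slco2a1, a prostaglandin carrier, was higher in both, at 1.97 and 1.21, the second with an interval that reached -0.05. Between the preparations 0 of 36 were 2-fold higher and 2 were 2-fold lower in hippocampal endothelial-like cells, Slco2a1 at -1.20 and Slc38a2, a neutral amino acid carrier, at -1.09, where 6.70% of all genes were higher and 3.07% lower.

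The genes with the most similar pattern to each transporter were sought by the Pearson correlation of log2(CPM + 1) across 28 points, the classes and segments of both preparations, over 9051 genes. The points share libraries and differ in depth, so the values describe likeness and carry no test. Slc38a5 was most like Aplnr (0.98), Ctla2a (0.93) and Kdr (0.93), and Slc2a1 most like Sox7 (0.95), Srarp (0.94) and Grrp1 (0.94). Slc16a1 was nearest to Slc2a1 (0.90), Stap2 (0.89) and Dusp23 (0.89). For Slco1a4 the nearest were Slc16a4, Cldn5 and Srarp (each 0.97), and for Abcb1a C130074G19Rik, Adgrl4 and Ly6c1 (each 0.98).

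Slc7a5 was nearest to Slc19a3 (0.94), Slc39a10 (0.93) and Unc45b (0.93), and Slc7a1 to AU021092 (0.94), Slc19a3 (0.94) and Ccm2l (0.93). Abcg2 was nearest to Nomo1 (0.92), Cdh5 (0.91) and Afap1l1 (0.90), and Slco1c1 to Ccdc141 (0.93), Gsta4 (0.91) and Slco1a4 (0.90). Mfsd2a had the least similar neighbours, Efr3b (0.87), Ddah1 (0.85) and Prom1 (0.82).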

How the data were processed

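Droplet scRNA-seq was analysed in 6 libraries, 3 technical replicates of each of 2 pooled preparations. The authors deposited raw UMI counts per gene and barcode, not normalized, with barcodes already called as cells (lowest total 500 UMIs). The labels name Cell Ranger 5.0.1 and mm10, whereas the matrix headers name 3.0.1 (cortex) and 3.1.0 (hippocampus). The filter kept cells with 250 to 6000 genes and less than 25% of UMIs from mitochondria. After log-normalization to 10000, 2000 variable genes without the members served to integrate the libraries of a preparation (canonical correlation analysis, 30 dimensions), and cells were clustered at a resolution of 0.5 in Seurat 5.3.0 (R 4.3.3, Matrix 1.6.5). Clusters were named from 16 marker lists, where a marker counted if found in at least 20% of cells and at least 2-fold higher with 5 CPM added to both sides, and at least 3 were needed. Endothelial-like cells of all 6 libraries were integrated and clustered again for segments, and capillary-like subclusters needed 3 capillary markers at 1.5-fold. Scrublet calls (0.8% per 1000 barcodes) marked 104 cortical and 120 hippocampal endothelial-like cells, which were kept.

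UMIs were summed per class and library, and ratios were given for genes with at least 20 UMIs over both sides. Intervals are exact Poisson for levels and exact conditional (Clopper-Pearson) for ratios, shares and counts at 95%, and their script was tested on simulated data. Shares of cells were taken after thinning to 1000 UMIs. The named genes are all members, for each the 3 genes of highest correlation among those with at least 50 CPM in 1 point, and related transporters past 2-fold. The members and lists were chosen with earlier results of these data known. Scripts ran in Python 3.11.15 with scanpy 1.11.5, scipy 1.17.1, numpy 2.4.6, matplotlib 3.10.9 and pandas 2.3.3. Alternatives varied the filters, doublets, shared barcodes, clustering, integration, sums, totals, fold and replicates.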

Additional observations from a re-analysis of the deposited data

Results flagged for a closer look

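Slc2a1 in arterial-like over venous-like cells was singled out because the 2 preparations gave opposite signs. The log2 ratio was -0.34 in cortex, where venous-like cells held more, and 0.34 in hippocampus, where arterial-like cells held more. The libraries gave -0.29, -0.44 and -0.32 in cortex and 0.52, 0.49 and 0.02 in hippocampus, so the third hippocampal library showed almost no difference. This difference between the preparations was not tested. With cells classed by their own marker UMIs the cortical ratio was 0.26, the sign seen in hippocampus.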

How the results depend on the processing

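No paired analysis was possible because the replicate numbers name technical libraries of 1 pooled suspension per preparation and no test was run. With cells classed by their own marker UMIs, 0 members passed 2-fold between venous-like and capillary-like cells in either preparation. Between arterial-like and venous-like cells 2 passed in each, and the clusters gave 4 and 5 for both comparisons. Classed singly, the venous-like group held 1256 cells against 115 in the clusters, and 836 of the 4833 cells had their best segment scores within 0.1. Without integration 7 in place of 4 passed between arterial-like and capillary-like cells in cortex, and the hippocampal arterial-like over venous-like ratio of Slc7a5 turned from -1.20 to 0.21. In that setting the largest subclusters split by preparation, with 1309 cortical and 21 hippocampal cells in the first and 17 and 1045 in the next, both unnamed. The arterial-like subcluster held 247 and 579 cells, the venous-like one 411 and 26. The capillary-like one held 127 and 260, with a median of 2140 UMIs. At an endothelial resolution of 1.0, 2 cortical and 3 hippocampal members passed between arterial-like and venous-like cells. The capillary-like cells of that resolution numbered 193 and 164 with a median of 3122 UMIs, and subclusters of 768, 646 and 442 cells stayed unnamed. Its arterial-like cells took in a subcluster of 654 cells with 3 arterial markers, and its venous-like cells took in 385 cells with 6 venous markers. With 1.5-fold as the limit, 1 member (Slc16a1) passed between the preparations in place of 0. Leaving out 1 library at a time gave 2 to 6 members between venous-like and capillary-like cells in hippocampus, with 2 without replicate 2. Between the preparations within arterial-like, capillary-like and venous-like cells, where 2, 0 and 1 members passed, 0, 0 and 0 did with cells classed by their own marker UMIs or at an endothelial resolution of 1.0, 1, 1 and 3 without integration, and 4, 1 and 2 at 1.5-fold. Leaving out 1 library gave 0 to 3 in arterial-like cells, with 0 without cortical replicate 3, and 1 to 2 in venous-like cells. The arterial-like ratio of Slc38a5 between the preparations turned to 0.12 with cells classed by their own marker UMIs and to 0.75 without integration. The cause of these changes was not tested. Counts of members under the alternatives, here and above, are given without the share of all genes that pass there. They describe only how far the calls depend on the setting. Of 2010 values of single genes under the alternatives, 1702 moved by less than the spread between libraries, 305 by more and 3 changed sign among called values. The alternatives for the segments between the preparations, and those that left out cells under 3000 UMIs or mixed endothelial subclusters, were chosen after seeing the data. Venous-like cells numbered 70 and 45 and limit the precision of every venous value, and 1 pooled sample per preparation gives no spread between animals.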
